A study of Mus musculus with 16 samples.

Results

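The genes described here are 9 that are used to recognise small cavity macrophages and dendritic cells: the transcription factors Irf4, Batf3 and Zbtb46, the surface receptors and lectins Mgl2, Fcrls, Cd226 and Flt3, the secreted ribonuclease Ear2 and the lysosomal amidase Naaa. They were taken by symbol from the deposited expression table, where all 9 were present among 24981 genes. RNA had been sequenced from sorted macrophages of unchallenged C57BL/6 mice at 8 weeks of age. The 16 libraries formed 4 groups of 4: pericardial cavity macrophages, pleural cavity macrophages and peritoneal cavity macrophages, each washed out by lavage, and heart macrophages. No genotype or treatment is given for any group, and libraries carry the numbers 2 to 5 in every group. Neither the sort gates nor the way the heart was dissociated is given in the sources used here. The heart group differs from the cavity groups in both tissue and harvest, and the effects of these cannot be told apart. Since no label ties a library to an animal of its own, p-values reflect no more than the spread among these libraries.

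Serous cavities hold large macrophages, which depend on the transcription factor Gata6, and small macrophages, which carry MHC class II and are renewed from blood monocytes. IRF4 directs the MHC class II-bearing cavity macrophages and the type 2 conventional dendritic cells, while BATF3 is needed by type 1 conventional dendritic cells. ZBTB46 and the cytokine receptor FLT3 are widely used to separate dendritic cells from macrophages.

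Values are RPKM, which scale reads to transcript length and to the library's reads, so levels can be compared between genes. Libraries held between 40886702 and 70166356 alignments. The RPKM total per library lay between 334803 and 482872 in pericardial, 366880 and 423288 in pleural, 272981 and 433448 in peritoneal and 227397 and 336952 in heart libraries. Differences are log2 folds of RPKM + 0.5, positive when higher in the group named first. They were tested with limma over 11234 genes with at least 1 RPKM in at least 4 libraries, and calls were made where the adjusted p (Benjamini-Hochberg) was under 0.05. The median log2 fold over all tested genes was 0.45, 0.36 and 0.38 in pericardial, pleural and peritoneal macrophages against heart. Rescaling libraries by median ratios, an alternative normalization, moved these medians to -0.00, -0.01 and 0.00. In pericardial against heart macrophages, 6048 genes were called higher and 1650 lower, which became 3550 and 3535 with median ratios, 4489 and 2865 with quantile normalization and 2694 and 4070 with libraries set to equal RPKM totals. Under the same 4 scalings the split was 5366 and 1567, 3443 and 3313, 4290 and 2787, and 2709 and 3689 in pleural against heart macrophages. It was 5485 and 1586, 3507 and 3278, 4347 and 2776, and 3470 and 3080 in peritoneal against heart macrophages. Between cavities, pericardial against peritoneal macrophages gave 59 higher and 48 lower genes, against 112 and 365 with equal totals, and pleural against peritoneal macrophages gave 24 and 42, against 110 and 634. Pericardial against pleural macrophages gave 1 higher and 1 lower gene, against 3 and 1 with median ratios and 2 and 1 with equal totals. Where a rescaling changes a call or a count of calls against heart, its values are given beside it, except for genes whose rescaled folds are said not to be given. The calls of Batf3, Mgl2, Fcrls and Ear2 against heart were made under all 4 scalings.

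Of the 9 genes, 7 passed the expression filter. Irf4, Batf3, Mgl2, Fcrls and Naaa reached 1 RPKM in all 16 libraries. Ear2 reached it in 8 libraries, including all 4 from heart. Cd226 reached it in 5, of which 3 were pericardial and 2 pleural, with 0 peritoneal and 0 heart libraries. Cd226 thus entered the test only through the groups where it was high, and its differences from heart and peritoneal macrophages are given as a description. Flt3 reached 1 RPKM in 0 libraries and Zbtb46 in 1, and both were left untested in the main comparison. Mean levels over the 16 libraries ran from 0.254 RPKM for Flt3 to 69.7 RPKM for Mgl2.

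The largest log2 folds among the 7 tested genes were those of Mgl2, Fcrls and Ear2, each lower in every cavity group than in heart. For these the proximal promoters are shown, from 250 bases before to 50 bases after the start used by the RefSeq promoter table (GRCm38.p6), 5′ to 3′ on the gene's strand, with capitals marking AGGAAG on either strand, the core of the site bound by the macrophage and dendritic cell factor PU.1.
Fcrls, chr3:87263475-87263774, minus strand: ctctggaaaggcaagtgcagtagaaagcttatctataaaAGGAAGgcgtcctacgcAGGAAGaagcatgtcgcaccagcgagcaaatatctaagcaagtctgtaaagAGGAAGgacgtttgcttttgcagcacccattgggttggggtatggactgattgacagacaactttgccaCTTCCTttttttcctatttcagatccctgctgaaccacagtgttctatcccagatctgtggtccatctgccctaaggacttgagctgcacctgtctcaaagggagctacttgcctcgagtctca
Mgl2, chr11:70130107-70130406, plus strand: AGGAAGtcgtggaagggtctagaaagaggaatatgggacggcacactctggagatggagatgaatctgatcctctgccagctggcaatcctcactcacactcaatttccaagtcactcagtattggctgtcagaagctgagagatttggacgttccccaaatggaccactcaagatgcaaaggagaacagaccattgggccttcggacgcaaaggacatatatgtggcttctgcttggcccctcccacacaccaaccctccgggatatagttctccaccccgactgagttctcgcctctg
Ear2, chr14:44102404-44102703, plus strand: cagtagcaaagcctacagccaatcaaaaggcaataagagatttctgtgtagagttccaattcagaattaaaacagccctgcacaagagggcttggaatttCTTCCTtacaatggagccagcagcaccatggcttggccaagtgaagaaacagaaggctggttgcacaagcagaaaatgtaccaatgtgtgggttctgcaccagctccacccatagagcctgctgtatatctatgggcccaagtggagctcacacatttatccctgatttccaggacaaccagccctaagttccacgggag

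The Fcrls window held 4 AGGAAG matches, beginning at positions -211, -194, -143 and -74 relative to the start, the last on the opposite strand. The Mgl2 window held 1 match, at its first base (-250), and the Ear2 window held 1 on the opposite strand, at -150. For Fcrls and Mgl2 the table's start lies inside the outermost span that RefSeq gives the gene. Among the promoters of 8 of the 9 genes (that of Cd226 was not searched), AGGAAG was found in 4, the fourth being that of Batf3, and in 35.4% of 32851 mouse promoters of the same length. The AP-1 site TGANTCA, which BATF factors bind with JUN partners, was found in 1, that of Zbtb46, and in 7.81% of all promoters. The composite site of IRF factors with PU.1 (GGAA, 2 bases of any kind, GAAA) and that of IRF factors alone (GAAA, 2 bases of any kind, GAAA) were found in 0 of the 8 and in 2.72% and 3.44% of all promoters. Both strands were searched, and matches of different motifs were allowed to overlap. These are letter matches in 1 window per gene and do not show binding.

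**Figure D1:**
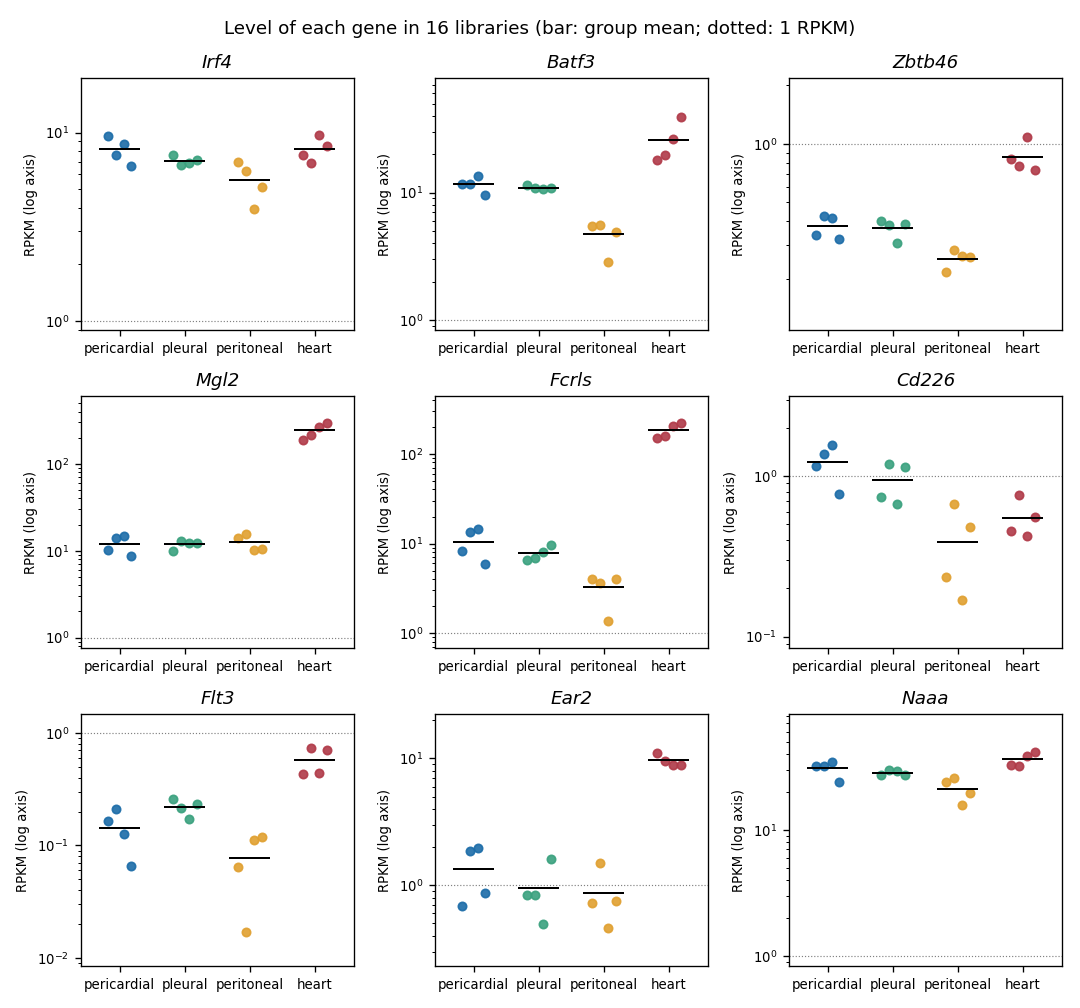
RPKM (log axis, a separate range per panel) of the 9 genes in each of the 16 libraries, 4 per group, with a bar at the group mean and a dotted line at 1 RPKM where it falls within the panel. Mgl2, Fcrls and Ear2 stood far higher in the 4 heart libraries than elsewhere, Batf3 was highest in heart and lowest in peritoneal libraries, and on these deposited values the groups lay closer together for Irf4 and Naaa than for those 4 genes.

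Among the transcription factors, Batf3 (chr1:191098414-191108943) differed most between groups. It measured 11.6, 11.6, 13.6 and 9.52 RPKM in pericardial libraries 2 to 5 and 11.4, 10.8, 10.6 and 10.8 RPKM in pleural libraries. Peritoneal libraries held 5.51, 5.61, 2.84 and 4.95 RPKM, and heart libraries 17.96, 19.7, 26.1 and 39.4 RPKM. Heart libraries were all above every cavity library, peritoneal libraries were all below every other library, and pericardial and pleural libraries overlapped. Against heart, Batf3 was lower by a log2 fold of -1.06 ± 0.22 (SE) in pericardial (limma, adjusted p = 0.000296), -1.14 ± 0.22 in pleural (adjusted p = 0.000177) and -2.30 ± 0.22 in peritoneal macrophages (adjusted p = 2.12e-08). These 3 comparisons share the heart libraries. Against peritoneal macrophages it was higher by 1.24 ± 0.22 in pericardial (adjusted p = 0.00484) and 1.16 ± 0.22 in pleural macrophages (adjusted p = 0.0105). The pleural call was lost when no expression filter was used (adjusted p = 0.0740). The pericardial minus pleural difference was 0.07 (adjusted p = 0.972), so the order of levels was heart, then pericardial and pleural, which did not differ beyond their spread, then peritoneal.

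Irf4 (chr13:30749233-30766981) was lowest in peritoneal macrophages, and its pericardial and pleural levels relative to heart depended on the scaling. It measured 9.58, 7.63, 8.76 and 6.69 RPKM in pericardial libraries and 7.63, 6.70, 6.92 and 7.13 RPKM in pleural libraries. Peritoneal libraries held 7.01, 6.26, 3.93 and 5.15 RPKM, and heart libraries 7.62, 6.92, 9.71 and 8.49 RPKM. The ranges of all 4 groups overlapped in part, with the lowest values in peritoneal libraries. Irf4 was lower in peritoneal than in heart macrophages by a log2 fold of -0.53 ± 0.16 (adjusted p = 0.00785), and this call held under all 4 scalings. In pericardial and pleural against heart macrophages the folds were -0.01 ± 0.16 (adjusted p = 0.978) and -0.18 ± 0.16 (adjusted p = 0.333) on the deposited values. Both were called lower after rescaling, at -0.48 and -0.58 with median ratios, -0.38 and -0.48 with quantile normalization and -0.61 and -0.68 with equal totals. The pericardial minus peritoneal fold of 0.53 (adjusted p = 0.199) was called only with median ratios (0.45, adjusted p = 0.0103) and quantile normalization (0.49, adjusted p = 0.00983) among the alternatives, and so was the pleural minus peritoneal fold of 0.35 (adjusted p = 0.505 on the deposited values). No neighbours in the order heart, pericardial, pleural, peritoneal differed on the deposited values.

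Zbtb46 (chr2:181371009-181493262), a zinc finger repressor of conventional dendritic cells, was near the floor of detection. It measured 0.337, 0.424, 0.413 and 0.323 RPKM in pericardial libraries and 0.399, 0.379, 0.308 and 0.385 RPKM in pleural libraries. Peritoneal libraries held 0.218, 0.283, 0.263 and 0.260 RPKM, and heart libraries 0.830, 0.763, 1.09 and 0.730 RPKM. Each heart library exceeded every cavity library, and each peritoneal library was below every pericardial and pleural library. With all genes tested and no filter, the cavity minus heart folds were -0.62 in pericardial (adjusted p = 4.05e-05), -0.63 in pleural (adjusted p = 3.77e-05) and -0.83 in peritoneal macrophages (adjusted p = 2.31e-06). Without the filter 40%, 35.2% and 35.9% of genes were called in these 3 comparisons.

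The partners of these 3 factors, among them the Jun proteins that pair with BATF3, and factors that oppose them in myeloid cells were also compared. Of 15 such genes tested, 3 were called higher and 8 lower in pericardial, 2 and 8 in pleural and 2 and 9 in peritoneal against heart macrophages, with median folds of -1.03, -1.09 and -0.89. Over all tested genes 53.8% were called higher and 14.7% lower in pericardial, 47.8% and 13.9% in pleural and 48.8% and 14.1% in peritoneal against heart macrophages. Rescaling left 0 or 1 called higher in each group. It raised the lower calls to between 11 and 13 in pericardial, between 11 and 12 in pleural and 12 in peritoneal macrophages. Lower calls over all 11234 tested genes rose as well. They went from 1650 to between 2865 and 4070 in pericardial, from 1567 to between 2787 and 3689 in pleural and from 1586 to between 2776 and 3278 in peritoneal macrophages. Jun, the AP-1 subunit that pairs with BATF factors, was lower by -5.24, -6.38 and -6.98, and its relative Jund by -2.54, -2.95 and -3.73. Id3, an inhibitor of E proteins, was lower by -3.09, -3.56 and -3.86, and Klf4, a factor of monocytes and type 2 dendritic cells, by -3.35, -3.62 and -3.63. Between cavities, 3 of the 15 were called higher in pericardial than in peritoneal macrophages, including Jun at 1.74 and Jund at 1.19, and 0 lower, when 0.525% of tested genes were called higher and 0.427% lower. With median ratios and with quantile normalization 5 were called higher and 1 lower, and with equal totals 4 and 1, the lower gene being Irf8 at -0.51, -0.52 and -0.65.

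Among the surface molecules, Mgl2 (chr11:70130125-70137542), a galactose-binding C-type lectin also known as CD301b, was the most abundant in heart. It measured 10.2, 14.2, 14.8 and 8.64 RPKM in pericardial libraries and 10.04, 12.8, 12.2 and 12.2 RPKM in pleural libraries. Peritoneal libraries held 13.9, 15.7, 10.3 and 10.4 RPKM, while heart libraries held 191, 217, 263 and 299 RPKM. The 3 cavity groups overlapped one another, and the heart libraries lay far above all of them. Means were 11.96 ± 3.01 RPKM in pericardial, 11.8 ± 1.22 in pleural and 12.6 ± 2.68 in peritoneal macrophages and 242 ± 48.1 RPKM in heart macrophages (SD, n = 4 each), so the heart mean was 20.3, 20.5 and 19.2 times the 3 cavity means. The log2 folds against heart were -4.30 ± 0.19 in pericardial (adjusted p = 2.54e-13), -4.29 ± 0.19 in pleural (adjusted p = 2.69e-13) and -4.21 ± 0.19 in peritoneal macrophages (adjusted p = 3.20e-13). Between cavities the folds were -0.08 (pericardial minus peritoneal), -0.07 (pleural minus peritoneal) and -0.01 (pericardial minus pleural), none called, with an SE of 0.19 each.

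Fcrls (chr3:87250736-87263765), an Fc receptor-like scavenger molecule known from mouse microglia, followed the same order as Batf3. It measured 8.19, 13.3, 14.3 and 5.97 RPKM in pericardial libraries and 6.55, 6.87, 8.00 and 9.75 RPKM in pleural libraries. Peritoneal libraries held 4.06, 3.65, 1.36 and 4.02 RPKM, and heart libraries 149, 158, 204 and 218 RPKM. Heart libraries stood far above the rest, and every peritoneal library was below every pericardial and pleural library. The folds against heart were -4.12 ± 0.28 in pericardial (adjusted p = 1.40e-10), -4.46 ± 0.28 in pleural (adjusted p = 4.19e-11) and -5.66 ± 0.28 in peritoneal macrophages (adjusted p = 9.32e-13). Fcrls was higher in pericardial than in peritoneal macrophages by 1.54 ± 0.28 (adjusted p = 0.00580), a call lost without the expression filter (adjusted p = 0.0549). The pleural minus peritoneal fold of 1.21 ± 0.28 was not called (adjusted p = 0.0548), and without peritoneal library 4, the lowest of its group, it was 0.90 and called (adjusted p = 0.0420). It was also called under the 3 rescalings, at 1.22, 1.27 and 1.11, and when the fit held these 2 groups only (adjusted p = 0.0491). The pericardial minus pleural fold was 0.34 (adjusted p = 0.968).

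The summed level of 6 microglia markers was 92.8 to 138 RPKM in pericardial, 103 to 119 in pleural and 80.6 to 123 in peritoneal libraries and 164 to 301 RPKM in heart libraries. Of the 5 tested, 4 were called lower in pericardial and 5 in pleural and in peritoneal than in heart macrophages. Over all tested genes 14.7%, 13.9% and 14.1% were called lower in these comparisons. Sall1, a factor that defines microglia, averaged 0.0282, 0.0600 and 0.0341 RPKM in the pericardial, pleural and peritoneal groups and 0.118 RPKM in heart.

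Cd226, an adhesion receptor known from T and NK cells and used to mark MHC class II-bearing cavity macrophages, had its highest level in pericardial macrophages. It measured 1.15, 1.38, 1.57 and 0.771 RPKM in pericardial libraries and 0.745, 1.197, 0.668 and 1.15 RPKM in pleural libraries. Peritoneal libraries held 0.236, 0.668, 0.169 and 0.485 RPKM, and heart libraries 0.452, 0.762, 0.423 and 0.556 RPKM. All pericardial libraries exceeded all peritoneal and heart libraries, though the lowest pericardial library was close to the highest heart library. The pericardial minus heart fold was 0.70 ± 0.20 (adjusted p = 0.00506) and passed the threshold, in a gene tested only because of its pericardial and pleural levels. It was 0.40 with median ratios (adjusted p = 0.0773) and 0.31 with equal totals (adjusted p = 0.184), where the call was lost, and it remained called with quantile normalization. The pleural minus heart fold was 0.45 (adjusted p = 0.0613), and with the replicate number as a block it was called at the same fold (adjusted p = 0.0442), as it was with these 2 groups only (adjusted p = 0.0445), without pleural library 4 (0.54, adjusted p = 0.0414) and without heart library 3 (0.54, adjusted p = 0.0409). The peritoneal minus heart fold was -0.26 (adjusted p = 0.264), called lower with median ratios (-0.50, adjusted p = 0.0312) and equal totals (-0.51, adjusted p = 0.0347).

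The pericardial minus peritoneal fold of Cd226 was 0.96 ± 0.20 (adjusted p = 0.0190). That call was lost without pericardial library 2, 3 or 4 (adjusted p = 0.0606, 0.0900 and 0.0962) and without peritoneal library 2 or 4 (adjusted p = 0.0712 and 0.0673). It was also lost without the filter (adjusted p = 0.0811) and with quantile normalization (adjusted p = 0.0587). The pleural minus peritoneal fold was 0.71 (adjusted p = 0.160), called with median ratios (adjusted p = 0.0396), and the pericardial minus pleural fold 0.25. Of its ligands and competing receptors, 5 of 8 listed symbols were in the table and 2 were tested. Rescaling gave 2 called lower in pericardial, 1 in pleural and 0 to 1 in peritoneal against heart macrophages. Lower calls over all 11234 tested genes lay between 2776 and 4070 under rescaling. Tigit, which competes with CD226 for ligand, was lower in the pericardial group than in heart by -1.22, and its pleural and peritoneal folds of -0.61 and -0.91 were not called. The ligand Pvr averaged 3.64, 3.20 and 3.81 RPKM in pericardial, pleural and peritoneal and 4.01 RPKM in heart macrophages.

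The summed level of 9 T and NK cell markers was 1.30 to 2.28 RPKM in pericardial, 1.87 to 2.99 in pleural and 1.18 to 2.39 in peritoneal libraries and 5.56 to 8.96 RPKM in heart libraries. Of these, 1 was tested, Cd4, and it was lower in each cavity group than in heart. B cell markers, 8 of them in the table, summed to 25.02 to 73.4 RPKM in pericardial, 31.5 to 75.2 in pleural and 16.3 to 51.7 in peritoneal libraries and 8.44 to 15.9 RPKM in heart libraries. Of the 6 tested, 4 were called higher in pericardial and in pleural and 3 in peritoneal than in heart macrophages, against 3 in each after rescaling. Over all tested genes 53.8%, 47.8% and 48.8% were called higher on the deposited values, so these B cell counts lay near that share. Their part in the Cd226 result was not tested. In these bulk libraries, more cells of a type and more RNA per cell cannot be told apart.

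Flt3 (chr5:147330741-147400489), the receptor for the cytokine that drives dendritic cell development, had the lowest mean of the 9 genes. It measured 0.166, 0.212, 0.126 and 0.0655 RPKM in pericardial libraries and 0.260, 0.215, 0.173 and 0.234 RPKM in pleural libraries. Peritoneal libraries held 0.0643, 0.0168, 0.112 and 0.118 RPKM, and heart libraries 0.436, 0.733, 0.438 and 0.701 RPKM. Heart libraries were above all cavity libraries, and pleural libraries were above all peritoneal libraries. Tested without the filter, the folds against heart were -0.74 in pericardial (adjusted p = 5.27e-05), -0.57 in pleural (adjusted p = 0.000553) and -0.89 in peritoneal macrophages (adjusted p = 8.94e-06). These folds are compressed by the added 0.5 RPKM, which is above most of the Flt3 values. Its ligand Flt3l averaged 6.43, 7.02 and 5.72 RPKM in pericardial, pleural and peritoneal and 4.83 RPKM in heart macrophages.

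Of 9 genes of the Flt3 and GM-CSF axis, 7 were tested. Pericardial and pleural against heart macrophages had 3 called higher and 3 lower each, and peritoneal against heart macrophages 2 and 2. Rescaling gave 3 lower in each group, with 1 higher in pericardial, 0 to 2 in pleural and 1 to 2 in peritoneal macrophages. On the deposited values between 47.8% and 53.8% of all tested genes were called higher and between 13.9% and 14.7% lower. Csf2rb and Csf2ra, the subunits of the GM-CSF receptor, were higher in the cavity groups, by 0.90, 0.78 and 1.09 and by 0.60, 0.70 and 0.67 in pericardial, pleural and peritoneal macrophages. With equal totals Csf2rb was not called in pleural macrophages (0.27) and Csf2ra was not called in any, at -0.03, 0.17 and 0.26, so its direction in pericardial macrophages flipped. Csf2ra was also not called in any with quantile normalization, at 0.004, 0.21 and 0.30. With median ratios it lost its pericardial call (0.10). Csf1r, the receptor of the macrophage growth factors, was lower by -0.98, -1.24 and -1.15, and Kitl, the ligand of Kit, by -2.37, -2.58 and -2.50.

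Ear2 (chr14:44102654-44103531), a secreted eosinophil-associated ribonuclease, was near the filter in cavity macrophages. It measured 0.689, 1.86, 1.98 and 0.867 RPKM in pericardial libraries and 0.834, 0.833, 0.493 and 1.62 RPKM in pleural libraries. Peritoneal libraries held 0.729, 1.505, 0.459 and 0.757 RPKM, and heart libraries 11.1, 9.59, 8.94 and 8.94 RPKM. Cavity groups overlapped one another, and all heart libraries lay above them. The folds against heart were -2.53 ± 0.26 in pericardial (adjusted p = 7.29e-08), -2.86 ± 0.26 in pleural (adjusted p = 1.20e-08) and -2.95 ± 0.26 in peritoneal macrophages (adjusted p = 7.40e-09). Between cavities the folds were 0.42 (pericardial minus peritoneal, adjusted p = 0.643), 0.08 (pleural minus peritoneal, adjusted p = 0.943) and 0.34 (pericardial minus pleural, adjusted p = 0.968), none called.

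Ear2 belongs to a cluster of near-identical genes, and 9 Ear genes were in the table. Ear3 and Ear12 carried the same value in all 16 libraries, so how reads were divided within the family is uncertain. Ear2 held 88.9% to 98.4% of the summed Ear level in pericardial, 51.3% to 78.1% in pleural and 54.9% to 69.1% in peritoneal libraries and 73.9% to 91.0% in heart libraries. The sum of 7 eosinophil markers was 1.37 to 3.61 RPKM in pericardial, 2.07 to 3.24 in pleural and 1.19 to 5.49 in peritoneal libraries and 1.93 to 4.77 RPKM in heart libraries. The eosinophil granule genes were at or near 0: Epx was at 0 in 3 pericardial, 4 pleural, 2 peritoneal and 3 heart libraries, and Prg2 in 2, 2, 4 and 2. Of 16 relatives of Ear2, 3 were tested and all were called lower in each cavity group than in heart. Over all tested genes between 13.9% and 14.7% were called lower. The angiogenic and antimicrobial ribonucleases Rnase4 and Ang were lower by -5.15, -5.09 and -6.08 and by -3.67, -3.59 and -4.35 in pericardial, pleural and peritoneal macrophages, and Rnase6 by -0.60, -0.50 and -0.54. Rnase4 was also higher in pericardial (0.93) and pleural (0.99) than in peritoneal macrophages.

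Naaa (chr5:92257660-92278181), which hydrolyses N-acylethanolamines in lysosomes, was abundant in all groups. It measured 32.3, 32.0, 34.6 and 24.0 RPKM in pericardial libraries and 27.0, 29.95, 29.1 and 27.4 RPKM in pleural libraries. Peritoneal libraries held 23.9, 25.8, 15.6 and 19.8 RPKM, and heart libraries 32.5, 32.2, 38.8 and 41.1 RPKM. Every pleural and peritoneal library was below every heart library, and pericardial libraries overlapped the heart range. Naaa was lower in peritoneal than in heart macrophages by -0.77 ± 0.16 (adjusted p = 0.000517), under all 4 scalings. The pericardial and pleural folds against heart were -0.24 (adjusted p = 0.202) and -0.34 (adjusted p = 0.0817) on the deposited values. After rescaling both were called lower, at -0.73 and -0.75 with median ratios, -0.78 and -0.78 with quantile normalization and -0.87 and -0.86 with equal totals. Pericardial minus peritoneal and pleural minus peritoneal folds were 0.53 (adjusted p = 0.211) and 0.43 (adjusted p = 0.367), and both were called higher under the 3 rescalings. Of 8 genes of acylethanolamide turnover, 4 were tested. Of these, 2 were called higher in pericardial and in pleural and 1 in peritoneal than in heart macrophages, with 0 lower. This balance turned under rescaling, to 1 higher and 2 lower in pericardial and in pleural macrophages with median ratios and with quantile normalization and 0 higher and 2 lower with equal totals. In peritoneal macrophages it became 1 higher, with 3 lower with median ratios and with equal totals and 2 lower with quantile normalization. On the deposited values 53.8%, 47.8% and 48.8% of all tested genes were called higher in the 3 comparisons with heart. Asah2, a neutral ceramidase, was higher by 0.77, 0.66 and 1.03, and Gde1, a phosphodiesterase that releases acylethanolamides, by 0.54 in pericardial and 0.48 in pleural macrophages, with 0.17 in peritoneal macrophages not called. With equal totals both lost these calls in pericardial and pleural macrophages, Asah2 at 0.23 and 0.22 and Gde1, whose sign flipped, at -0.07 and -0.03. Gde1 also lost both calls with median ratios (0.06 and 0.08) and with quantile normalization (0.14 and 0.16). In peritoneal macrophages Gde1 was called lower with median ratios (-0.23) and equal totals (-0.22).

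**Figure D2:**
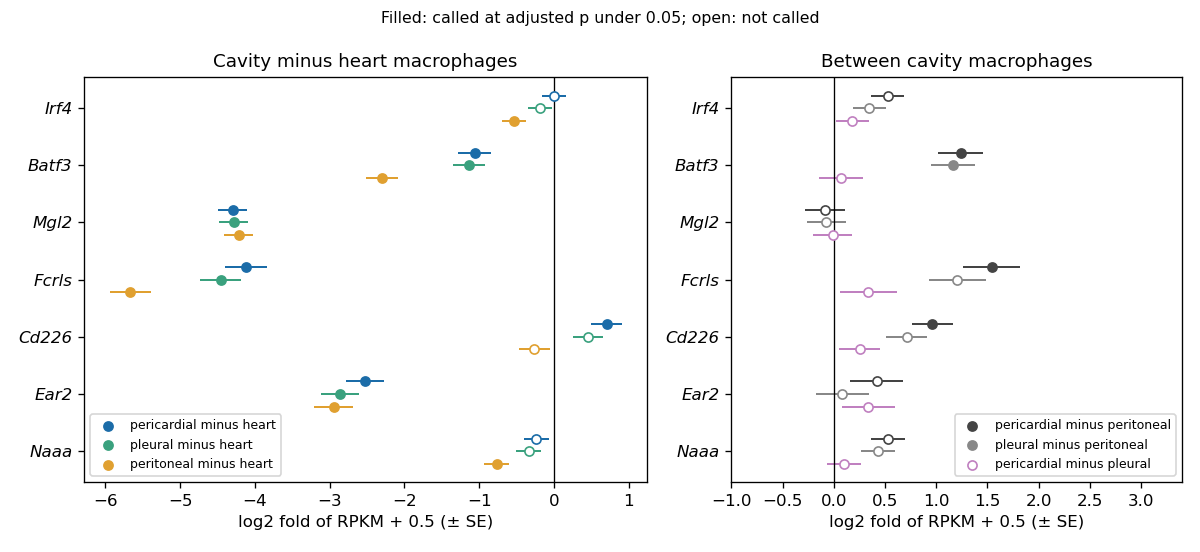
Log2 fold (± SE) of RPKM + 0.5 for the 7 tested genes, cavity minus heart on the left and between cavities on the right, with filled points called at adjusted p under 0.05. Mgl2, Fcrls and Ear2 were lowest relative to heart, at -4.30, -4.12 and -2.53 in pericardial macrophages, while Batf3 in both comparisons with peritoneal macrophages and Fcrls in pericardial against peritoneal macrophages were called higher, as was Cd226, which entered the test only through pericardial and pleural libraries.

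Against heart, pericardial macrophages had 1 of the 7 tested genes called higher (Cd226) and 4 called lower (Batf3, Mgl2, Fcrls, Ear2), when 68.5% of all tested genes were called, 53.8% higher and 14.7% lower. The Cd226 call is not read against that share, since the filter let it in through its high groups. Pleural macrophages had 0 higher and the same 4 lower, when 61.7% of genes were called, 47.8% higher and 13.9% lower. Peritoneal macrophages had 0 higher and 6 lower, adding Irf4 and Naaa, when 62.9% of genes were called, 48.8% higher and 14.1% lower. Under each of the 3 rescalings Irf4 and Naaa were also called lower in pericardial and pleural macrophages. With median ratios and with equal totals Cd226 lost its pericardial call and was called lower in peritoneal macrophages. On the deposited values the median fold of the 7 was -1.06, -1.14 and -2.30 in the 3 comparisons. Of the 7, 5 had groups that did not overlap in each comparison, when 55.7%, 58% and 42.3% of tested genes did not, with Cd226 among the 5 in pericardial macrophages.

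Between cavities, Batf3 and Fcrls were called higher in pericardial than in peritoneal macrophages, when 0.952% of tested genes were called, 0.525% higher and 0.427% lower. Cd226 passed the threshold there too, but with its entry through the filter fixed by its pericardial and pleural levels it is not counted against that share. Batf3 was the 1 of 7 called in pleural against peritoneal macrophages, when 0.588% of genes were called, 0.214% higher and 0.374% lower. In pericardial against pleural macrophages limma called 0 of 7, and 0 had an unadjusted p under 0.05, when 0.0178% of genes were called, 0.0089% in each direction. Groups did not overlap for 3 of the 7, Cd226 included, in pericardial against peritoneal and for 3 in pleural against peritoneal macrophages, when 3.85% and 3.93% of tested genes did not, and for 0 in pericardial against pleural macrophages.

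**Figure D3:**
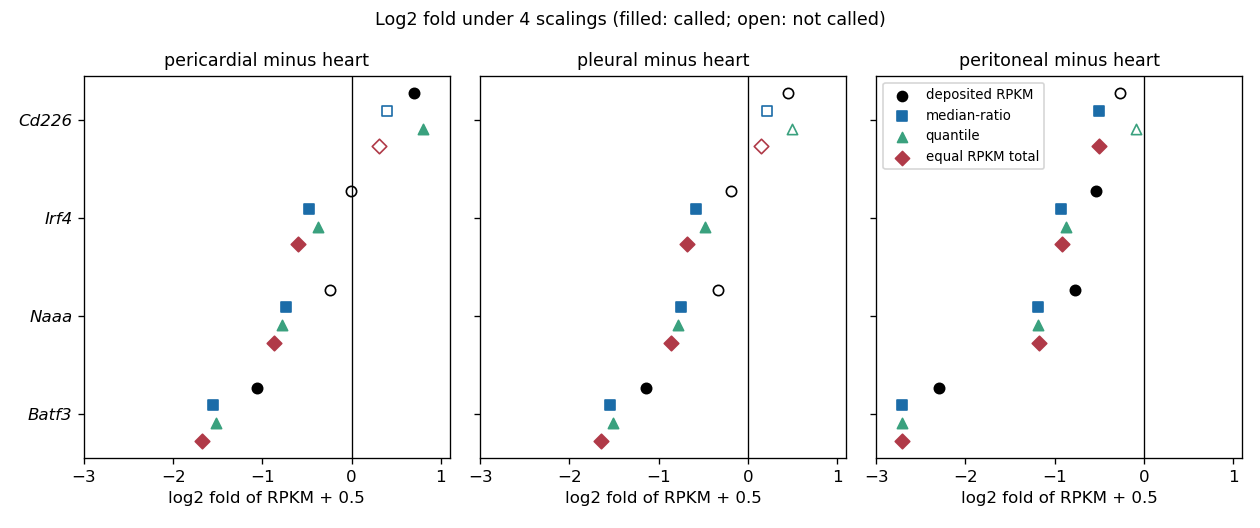
Log2 fold of RPKM + 0.5 of Cd226, Irf4, Naaa and Batf3, each cavity minus heart, on the deposited RPKM and under 3 rescalings, with filled points called at adjusted p under 0.05. Irf4 and Naaa in pericardial and pleural macrophages were called lower under each rescaling and not on the deposited values, and the pericardial Cd226 fold ran from 0.31 to 0.80.

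Other genes of small cavity macrophages were lower in cavity libraries than in heart libraries in most cases. Of 12 tested, 3 were called higher and 9 lower in pericardial, 2 and 9 in pleural and 1 and 9 in peritoneal against heart macrophages, with median folds of -2.06, -1.90 and -2.43. Under each of the 3 rescalings 9 were again called lower in each comparison. Of the genes called higher, Csf2rb lost its pleural call with equal totals (0.27). The MHC class II genes H2-Eb1, H2-Aa and H2-Ab1 were lower by -4.00, -3.76 and -3.59 in pericardial, -3.98, -3.83 and -3.54 in pleural and -5.10, -4.84 and -4.66 in peritoneal macrophages. Cd74, the class II invariant chain, was lower by -3.53, -3.57 and -4.60. The cavity libraries carried the large cavity macrophage factor Gata6 at means of 40.8, 34.1 and 41.0 RPKM in pericardial, pleural and peritoneal groups, against 0.841 RPKM in heart.

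Of 14 tested conventional dendritic cell genes from a list of 21, 4 were called higher and 7 lower in each of the 3 cavity groups against heart, when between 47.8% and 53.8% of all tested genes were called higher and between 13.9% and 14.7% lower. The lower count was 7 under each rescaling, when lower calls over all 11234 tested genes rose to between 2776 and 4070. The higher count was 2, 4 and 2 in pericardial, pleural and peritoneal macrophages with median ratios, 4, 4 and 3 with quantile normalization and 2 in each with equal totals. The protease gene Adam19 was lower by -4.14, -4.18 and -4.35 in pericardial, pleural and peritoneal macrophages, and the integrin Itgax (CD11c) by -2.85, -2.94 and -3.08. Kmo, an enzyme of tryptophan breakdown, was lower by -3.55, -3.39 and -3.65, while the sialyltransferase St3gal5 was higher by 4.06, 4.01 and 4.34.

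Of 6 tested type 1 dendritic cell genes, 2 were called higher and 2 lower in each cavity group against heart, and 1 or 2 higher and 3 lower under the rescalings. Over all tested genes between 47.8% and 53.8% were called higher and between 13.9% and 14.7% lower on the deposited values. The adhesion molecule Cadm1 was lower by -3.09, -2.93 and -2.98 in pericardial, pleural and peritoneal macrophages, and Irf8, the factor that type 1 dendritic cells share with monocytes, by -1.33, -1.54 and -0.89. Id2, an inhibitor of E proteins, was higher by 1.40, 1.17 and 0.68, and Wdfy4, needed for cross-presentation, by 0.82, 0.59 and 0.84. Id2 was not called in peritoneal macrophages with median ratios (0.26), and Wdfy4 was not called in pericardial (0.23) and pleural macrophages (0.099) with equal totals. The defining receptor Clec9a averaged 0.0599, 0.0966 and 0.197 RPKM in the cavity groups and 0.360 RPKM in heart. Xcr1, the chemokine receptor of the same cells, averaged 1.35, 2.75 and 2.01 RPKM in cavity groups and 3.51 RPKM in heart.

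Of 6 tested type 2 dendritic cell genes, 1 was called higher in each cavity group, and 4, 4 and 5 lower in pericardial, pleural and peritoneal macrophages against heart, with 1 higher and 5 lower in each under every rescaling. On the deposited values between 47.8% and 53.8% of all tested genes were called higher and between 13.9% and 14.7% lower. The receptor Notch2 was higher by 1.80, 1.44 and 1.88. The lectins Clec10a and Cd209a, relatives of Mgl2, were lower by -1.28, -1.30 and -1.13 and by -0.79, -0.71 and -1.01. Of the 4 tested relatives of Mgl2, Clec10a and Cd209a were called lower in each cavity group, when between 13.9% and 14.7% of all tested genes were on the deposited values. The remaining tested relatives were lower too. They were the asialoglycoprotein receptor subunit Asgr2 (-3.96, -3.94 and -3.95) and Clec4f, a lectin known from Kupffer cells (-2.35 in each). The pericardial minus peritoneal folds of Asgr2 and Clec4f were -0.013 and -0.005, so both may lie near 0 RPKM in cavity libraries. They may then have entered the test only through heart libraries, so their calls are a description and are not counted against that share. Of the relatives of Fcrls, Fcrla was the 1 of 5 tested, higher by 1.36 in pericardial and 1.49 in pleural macrophages, with 0.76 in peritoneal macrophages not called.

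Of 5 tested migratory dendritic cell genes, 2 were called higher and 1 lower in pericardial, 1 and 1 in pleural and 2 and 2 in peritoneal against heart macrophages. Over all tested genes between 47.8% and 53.8% were called higher and between 13.9% and 14.7% lower on the deposited values. Under each rescaling the pericardial and pleural counts were 1 higher and 2 lower, as the receptor Cd40 lost its pericardial call and the NF-kB factor Relb became called lower in both. The peritoneal counts were 1 and 2 with median ratios and 2 and 2 otherwise. Cd83, an activation marker, was lower by -7.28, -7.01 and -7.51, and Fscn1, an actin bundler, was higher by 2.06, 1.77 and 2.50. Of 5 tested plasmacytoid genes, 1 was called higher and 2 lower in each cavity group, with the same shares over all tested genes. Under each rescaling 4 were called lower in pericardial and in peritoneal macrophages, and 2 to 3 in pleural macrophages, while 0 were called higher in peritoneal macrophages with median ratios and with equal totals. Siglech was lower by -2.18, -1.23 and -2.10 and Tcf4 by -1.15, -1.35 and -1.20. Spib, a PU.1 relative, was higher by 1.43, 1.48 and 0.97, the last not called with median ratios (0.71) or equal totals (0.71).

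**Figure D4:**
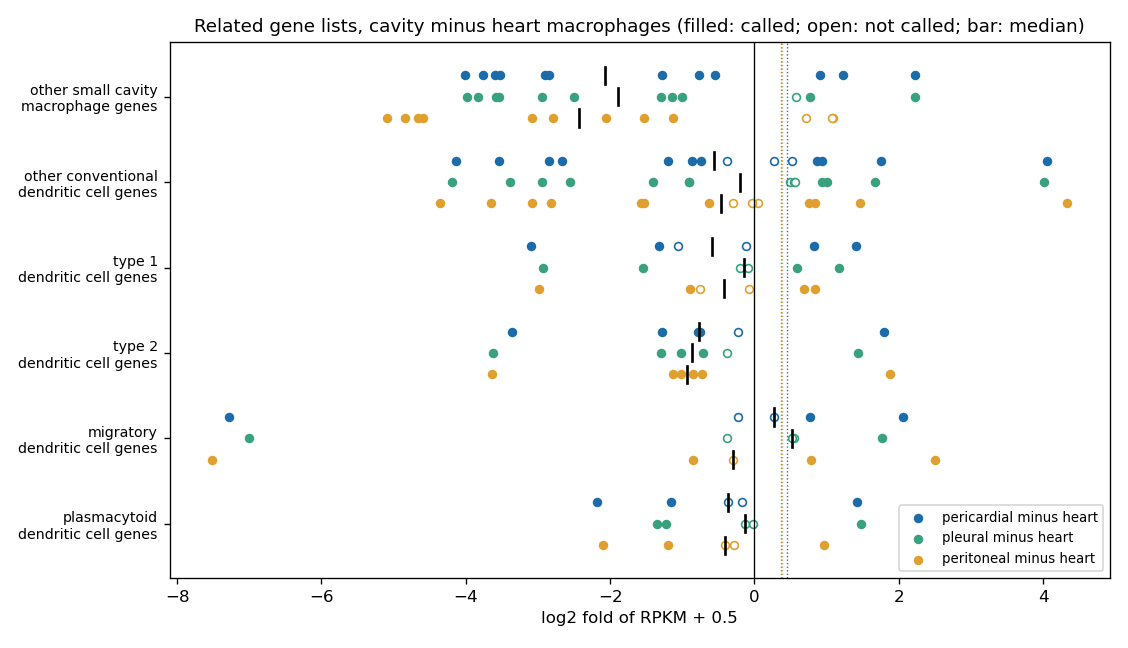
Log2 fold of RPKM + 0.5, cavity minus heart, of tested genes in 6 related lists, where each point is a gene, filled points are called, black bars are list medians and dotted lines are the medians over all tested genes. Small cavity macrophage genes had medians of -2.06, -1.90 and -2.43 in pericardial, pleural and peritoneal macrophages. Each of the 6 lists held genes on both sides of 0 on the deposited values.

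Heart libraries carried transcripts of other heart cells. The sum of 8 cardiomyocyte markers was 0.720 to 1.77 RPKM in pericardial, 1.53 to 3.18 in pleural and 0.997 to 1.41 in peritoneal libraries and 270 to 565 RPKM in heart libraries. For 6 fibroblast markers the sums were 0.236 to 0.673, 0.563 to 0.689 and 0.102 to 0.692 RPKM in the cavity groups and 58.0 to 266 RPKM in heart. The 10 macrophage markers summed to 31789 to 50617 RPKM in pericardial, 37234 to 46357 in pleural, 23837 to 40234 in peritoneal and 8569 to 14890 RPKM in heart libraries. This sum does not stand for each marker. On the deposited values 3 of the 10 were called higher in each cavity group than in heart (Lyz2, Itgam and Adgre1). Another 2 were called lower (Csf1r and Fcgr1), and 5 were not called. Over all tested genes between 47.8% and 53.8% were called higher and between 13.9% and 14.7% lower. Monocyte markers, 8 in all, summed to 202 to 294, 196 to 240 and 131 to 224 RPKM in the cavity groups and 386 to 552 RPKM in heart. The part of these cells in the differences against heart was not tested.

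Across the 16 libraries, Mgl2, Fcrls and Ear2 varied together. The Pearson correlation of log2(RPKM + 0.5) was 0.95 for Mgl2 with Fcrls, 0.96 for Mgl2 with Ear2 and 0.96 for Fcrls with Ear2. With each group's mean removed, these were 0.75, 0.53 and 0.61. Irf4, Batf3 and Naaa also varied together within groups, at 0.71 for Irf4 with Batf3 and 0.84 each for Irf4 with Naaa and Batf3 with Naaa. The sets were not separate. Within groups Mgl2 correlated with Irf4, Batf3 and Naaa at 0.52, 0.73 and 0.85, and Fcrls at 0.64, 0.75 and 0.79. For Ear2 these values were lower, at 0.21, 0.27 and 0.41. Genes of a library share its scaling and depth, so these values are a description and carry no test.

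The genes with the most similar profiles were sought for each tested member among 10574 genes, over the 16 libraries. Group means were not removed, so these correlations include the difference between heart and cavity groups. They are a description and carry no test. For Mgl2 they were the platelet chemokine gene Ppbp (r = 0.996), the receptor Cd300c2 (0.996) and the desaturase Fads1 (0.995). For Fcrls they were Plbd1 (0.992), Slamf9 (0.991) and the lectin Clec4b1 (0.991), and for Ear2 they were Bik (0.967), Errfi1 (0.966) and Pea15a (0.965). Batf3 was closest to the actin-binding gene Cnn2 (0.981), Tmem176b (0.962) and the calcium channel Orai1 (0.952), and Irf4 to the sterol enzyme Cyp51 (0.942), Dcaf11 (0.920) and Ssbp2 (0.907). Naaa was closest to Tmem243 (0.972), Chsy1 (0.961) and Bcl10 (0.960). Cd226 had the loosest matches, to Tppp3 (0.865), Agap2 (0.850) and Tppp (0.845). Tppp3 averaged 215 and 212 RPKM in pericardial and pleural macrophages, 87.9 RPKM in peritoneal and 84.5 RPKM in heart macrophages.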

How the data were processed

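RNA from 16 libraries of sorted macrophages was sequenced, in 4 groups read from the sample titles. The submitters' processing notes name TopHat2 2.1.1, bcl2fastq 2.17.1, Partek 7.18.0723 and the mouse build mm10. The deposited RPKM values came from Partek after TopHat mapping, per the file headers. A count of alignments for each library was deposited too. A further table deposited by the authors holds group means of log2 RPKM per transcript and was used only as a check. Not given in the sources used here are the read total behind RPKM, the annotation, the use of strand and the treatment of multi-mapped reads. Exact read depth per gene is therefore unknown, and no counting interval is given.

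From the deposited RPKM, log2(RPKM + 0.5) was computed for 11234 genes with at least 1 RPKM in at least 4 libraries, and 1 linear model over the 16 libraries was fitted with limma 3.58.1 (R 4.3.3) and a trended empirical Bayes variance (12 residual degrees of freedom, two-sided test, Benjamini-Hochberg over 11234 genes). The fold understates changes of low genes. The limma step was tested on simulated data. Errors are SE for folds and SD otherwise. Alternatives were a pseudocount of 0.1 or 1, no filter, median-ratio scaling, quantile normalization, equal RPKM totals, 2 groups only, a replicate block and leaving out each library. Deviations of same-numbered libraries from their group means correlated between -0.63 and 0.63 in 24 pairs, over 0.1 in 14. All 4 pairs were over 0.1 only between pericardial and pleural libraries, which the numbers may therefore pair, though no label says so. The main fit used no pairing. The replicate block was applied over all 4 groups, so no test paired pericardial with pleural libraries alone.

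The 9 genes and the lists were chosen with earlier results of these data known. Each of the 9 genes was named in every comparison. Of each list, up to 4 called genes with the largest fold against heart were named, and for each tested gene the 3 genes with the most similar profile. Means of Gata6, Sall1, Xcr1, Clec9a, Pvr, Flt3l, Epx and Prg2 and the folds of Plac8, Retnla and Ccr2 were added after values were seen. Promoter sequences and gene positions are from RefSeq (GRCm38.p6, the assembly of mm10), which matched the 8 genes searched.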

Additional observations from a re-analysis of the deposited data

Results flagged for a closer look

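Among the 36 groups of 4 libraries that the 9 genes give, 1 held a library far from the others by Dixon's test. Fcrls was at 1.36 RPKM in peritoneal library 4, where the gap to the next peritoneal library took up 0.850 of the group's range. Chance alone flags about 1 group in 20. This library had the lowest RPKM total of its group, 272981.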

How the results depend on the processing

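Of 672 folds of the 7 tested genes under the alternatives, 605 kept their direction and their side of the threshold, 35 became called, 11 lost the call and 21 changed sign, none of which had been called. The sign changes were Batf3 in pericardial against pleural macrophages (-0.0066 with median ratios, -0.0090 with quantile normalization, -0.030 with equal totals, -0.0033 to 0.16 leaving out a library), Naaa in the same comparison (-0.00015 with quantile normalization, -0.0066 with equal totals), and, leaving out a library, Irf4 in pericardial against heart (-0.082 to 0.080), Mgl2 in pericardial against peritoneal (-0.19 to 0.055), pleural against peritoneal (-0.16 to 0.039) and pericardial against pleural (-0.12 to 0.13) and Ear2 in pleural against peritoneal macrophages (-0.12 to 0.29).

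Of the 7 genes, 3 were called in pericardial against peritoneal macrophages, 1 without the filter, 5 with median ratios and 2 to 3 leaving out a library. In pleural against peritoneal macrophages 1 was called, 0 without the filter, 5 with median ratios, 4 with quantile normalization, 3 with equal totals, 2 with the 2 groups only and 1 to 2 leaving out a library. Over all genes, calls in pericardial against peritoneal macrophages were 107, then 360, 302 and 477 under the 3 rescalings in that order and 60 to 117 leaving out a library. In pleural against peritoneal macrophages they were 66, then 630, 559 and 744, and 39 (without pleural library 5) to 490 (without peritoneal library 4). In pericardial against pleural macrophages 2 genes were called, 7 with a pseudocount of 0.1, 0 without the filter, 4 with median ratios, 4 with the 2 groups only and 1 to 4 leaving out a library. With the replicate block, calls were 7414, 6673 and 6748 in pericardial, pleural and peritoneal against heart macrophages and 109, 80 and 2 between cavities, and among the 7 genes the block changed the Cd226 call given above and no other. The cause of these changes was not tested. The number of reads behind values under 1 RPKM, such as those of Flt3 and Zbtb46, is unknown, so their precision is not known beyond the spread between libraries.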
